A study of Mus musculus with 26 samples.

Results

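The transcripts described are those of 9 genes of the canonical Wnt pathway in mouse embryonic stem cells (mESCs): the ligands Wnt3 and Wnt8a, the transcription factors Tcf7 and Lef1, and the target genes Axin2, Nkd1, Sp5, Cdx1 and T. They were taken by gene symbol from the 24015 genes listed for each RNA-seq library, and all 9 were found. Levels are given as RPKM, which scales the reads of a gene by the length of its model and by all reads counted on genes in that library, and cover 15 libraries of 7 conditions. Genes that reached 1 RPKM in 2 or more libraries were tested, 13477 in all, and 8 of the 9 were among them. T reached that level in 1 library and is given by its values.

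All libraries came from the Stella:GFP mESC line, which carries a GFP transgene driven by Stella regulatory sequence. There was 1 library of wild-type (wt) cells from serum+LIF and 2 from 2i+LIF, and all engineered lines were grown in serum+LIF. Serum+LIF cells had spent 5 days without feeders in medium with 15% FBS, after maintenance in 2i+LIF, a serum-free medium with the MEK inhibitor PD0325901 (0.8 µM) and the GSK3 inhibitor CHIR99021 (3.3 µM). Prdm14-/- cells (clones G6 and F10) and Mtgr1-/- cells (clones A3, C1 and C3) were single-cell clones made with CRISPR/Cas9. Prdm14 is a PR-domain protein that binds DNA, and Mtgr1, encoded by Cbfa2t2, is its co-repressor partner of the ETO family. Each clone was also sequenced after it had been given back the FLAG-HA-tagged protein that it lacked (FH-Prdm14, 2 libraries; FH-Mtgr1, 3 libraries), and G6 and F10 also with FH-Prdm14 carrying the E294K substitution, made to break the binding to Mtgr1 (E294K, 2 libraries). A replicate of an engineered condition is therefore a clone, and a rescue line carries the edited alleles as well as the transgene. The p-values rest on the spread between replicates pooled over all conditions, which takes in the 2 wt 2i+LIF libraries as well as the clones.

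In canonical Wnt signalling a secreted Wnt protein binds a Frizzled receptor with the co-receptor Lrp5 or Lrp6, and a destruction complex built on Axin and Apc stops handing β-catenin to the kinase Gsk3 for degradation. β-catenin then enters the nucleus and activates genes to which TCF/LEF proteins are bound, among them genes that dampen the pathway again, such as Axin2 and Nkd1. In the embryo Wnt3 is required for the primitive streak, where T is made, and in mESC culture GSK3 inhibition is used to stabilise β-catenin and to relieve repression by Tcf7l1.

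TCF/LEF proteins bind the core letters CTTTGA or CTTTGT, and target genes often carry them close to the start site. The 250 bases before the start site were therefore read from RefSeq (GRCm38.p6) and searched for both hexamers on both strands. The sequences of 4 genes are shown because Sp5, Lef1 and T held matches and Axin2, a gene usually used to read out the pathway, held none; capitals mark the matches, and a match on the opposite strand reads TCAAAG or ACAAAG. Sp5 stands at chr2:70474673-70474922 (+ strand), Lef1 at chr3:131156044-131156293 (+), Axin2 at chr11:108920099-108920348 (+) and T at chr17:8434173-8434422 (+).

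Sp5: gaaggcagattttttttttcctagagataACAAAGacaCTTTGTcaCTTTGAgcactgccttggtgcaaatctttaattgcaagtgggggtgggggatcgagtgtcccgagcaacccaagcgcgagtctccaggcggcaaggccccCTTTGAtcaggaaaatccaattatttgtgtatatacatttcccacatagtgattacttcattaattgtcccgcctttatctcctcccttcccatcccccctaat

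Lef1: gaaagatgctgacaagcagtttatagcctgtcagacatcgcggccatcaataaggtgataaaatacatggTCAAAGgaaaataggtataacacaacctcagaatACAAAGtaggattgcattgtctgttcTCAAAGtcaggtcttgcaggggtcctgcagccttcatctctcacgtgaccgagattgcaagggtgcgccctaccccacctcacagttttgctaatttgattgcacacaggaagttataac

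T: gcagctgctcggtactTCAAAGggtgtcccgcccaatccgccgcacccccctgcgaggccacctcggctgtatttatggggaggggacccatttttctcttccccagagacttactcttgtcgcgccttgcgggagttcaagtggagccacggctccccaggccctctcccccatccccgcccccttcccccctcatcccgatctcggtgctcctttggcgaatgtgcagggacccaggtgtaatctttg

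Axin2: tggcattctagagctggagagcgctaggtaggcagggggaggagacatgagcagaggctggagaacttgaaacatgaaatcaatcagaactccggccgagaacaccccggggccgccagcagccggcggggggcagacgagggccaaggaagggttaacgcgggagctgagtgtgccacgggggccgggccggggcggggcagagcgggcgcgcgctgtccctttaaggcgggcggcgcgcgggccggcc

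The Sp5 sequence held 4 matches, whose first bases lay at positions -221, -212, -204 and -104 from the start site. Of all 32851 promoter entries 0.0944% held 4 or more. The Lef1 sequence, 1 of 4 RefSeq start sites of that gene, held 3 matches, and the other Lef1 start sites held 0. T held 1 match, at position -234. No match was found in these windows for Axin2, Nkd1, Tcf7 or Wnt3, and 27.6% of all entries held at least 1. Cdx1 and Wnt8a were not searched.

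Sequencing gave between 10668572 and 21218414 reads on genes per library (median 13793727). Behind the least expressed members stood few reads: 3 to 38 per library for T, 1 to 79 for Cdx1, 0 to 72 for Wnt8a and 4 to 221 for Sp5, against 567 to 3117 for Tcf7. Prdm14 transcripts were at 1.96 and 3.60 RPKM in Prdm14-/- cells and 2.77 RPKM in the wt serum+LIF library, so that RNA did not separate this knockout from wt and is no check of its label; the tagged transgenes gave 79.8 to 116 RPKM in the FH-Prdm14 and E294K lines. Cbfa2t2 was at 40.7 RPKM in the wt serum+LIF library, 19.91, 18.64 and 18.02 RPKM in Mtgr1-/- cells and 25.5, 26.7 and 28.0 RPKM in FH-Mtgr1 cells; Prdm14-/- cells, at 16.6 and 16.8 RPKM, were lower than Mtgr1-/- cells, so that this RNA is no check of that label either. None of the 10 mESC markers was near 0 in any condition, and their summed RPKM was 1711 to 1984 in Mtgr1-/- and 2862 to 3689 in FH-Mtgr1 cells, 3102 to 3973 in Prdm14-/- and 4966 to 5206 in FH-Prdm14 cells, and 3402 in the wt serum+LIF library. Of these 10 markers 0 were higher and 7 lower in Prdm14-/- against FH-Prdm14 cells (all genes 11.4% and 13.8%). In Mtgr1-/- against FH-Mtgr1 cells 0 were higher and 4 lower (26.2% and 26.1%). Against wt cells 0 were higher and 3 lower in Prdm14-/- (11.7% and 13.7%), and 0 and 8 in Mtgr1-/- cells (14.9% and 22.1%). FH-Prdm14 cells had 3 higher and 0 lower than wt cells (6.92% and 5.6%). The part of these marker changes in the changes of the Wnt genes was not tested. Because these are bulk samples, fewer cells expressing a gene and less RNA per cell cannot be told apart.

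Changes were tested with limma on log2(RPKM + 0.5) in 1 fit over all libraries, with Benjamini-Hochberg adjustment over the 13477 genes tested and a threshold of 0.05, and a change past it is called. Log2 fold changes are on that scale, which makes the change of genes with low values smaller than in RPKM. The single wt serum+LIF library has no replicate, and its comparisons take their spread from the other conditions. Cdx1, Wnt3, Wnt8a, Sp5 and Nkd1 were under 1 RPKM in 7 or more of the 15 libraries and entered the test through the libraries in which they were high.

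The knockout comparisons set cells without Prdm14 or Mtgr1 beside their rescue lines and beside wt cells. FH-Prdm14 cells overexpressed Prdm14 RNA against the wt serum+LIF library, by 4.89 ± 0.46 (SE) on the log2 scale. A difference between Prdm14-/- and FH-Prdm14 cells therefore takes in this overexpression as well as the loss, and the 2 cannot be told apart in it. In Mtgr1-/- against FH-Mtgr1 cells 2 of the 9 genes were called higher and 3 lower, where 26.2% of all genes tested were higher and 26.1% lower. In Prdm14-/- against FH-Prdm14 cells 2 were higher and 1 lower (background 11.4% and 13.8%). Against the wt serum+LIF library, Mtgr1-/- cells had 3 higher and 1 lower (14.9% and 22.1%) and Prdm14-/- cells 1 higher and 1 lower (11.7% and 13.7%). Between the knockouts, 2 were higher in Mtgr1-/- than in Prdm14-/- cells and 1 lower (14.4% and 21.1%). With 8 genes tested, nothing is read from these counts as a property of the group, and the results follow gene by gene.

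The E294K lines ask what a Prdm14 protein that no longer binds Mtgr1 detectably can restore. Against FH-Prdm14 cells 0 of the 9 genes were called higher and 1 lower (background 6.35% and 13.2%). At an unadjusted p under 0.05 in limma there were 1 higher and 5 lower. Of all 13477 genes 4536 passed that unadjusted threshold with a pseudocount of 0.1 and 4624 with 1. The number of members called moved with the samples fitted, and so did that of all genes. All 8 tested members were called when the fit held only E294K and FH-Prdm14 libraries, with 3003 of 13477 genes higher and 4211 lower. With voom on reads 4 members were called, with 885 genes higher and 1872 lower. Against Prdm14-/- cells 1 was higher and 3 lower (15.1% and 17.8%). FH-Prdm14 cells had 0 higher and 1 lower than the wt serum+LIF library (6.92% and 5.6%). Between media, wt cells in 2i+LIF had 1 gene higher and 2 lower than in serum+LIF (9.28% and 13.6%), and 1 higher and 4 lower than FH-Prdm14 cells (7.97% and 15.5%).

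**Figure D1:**
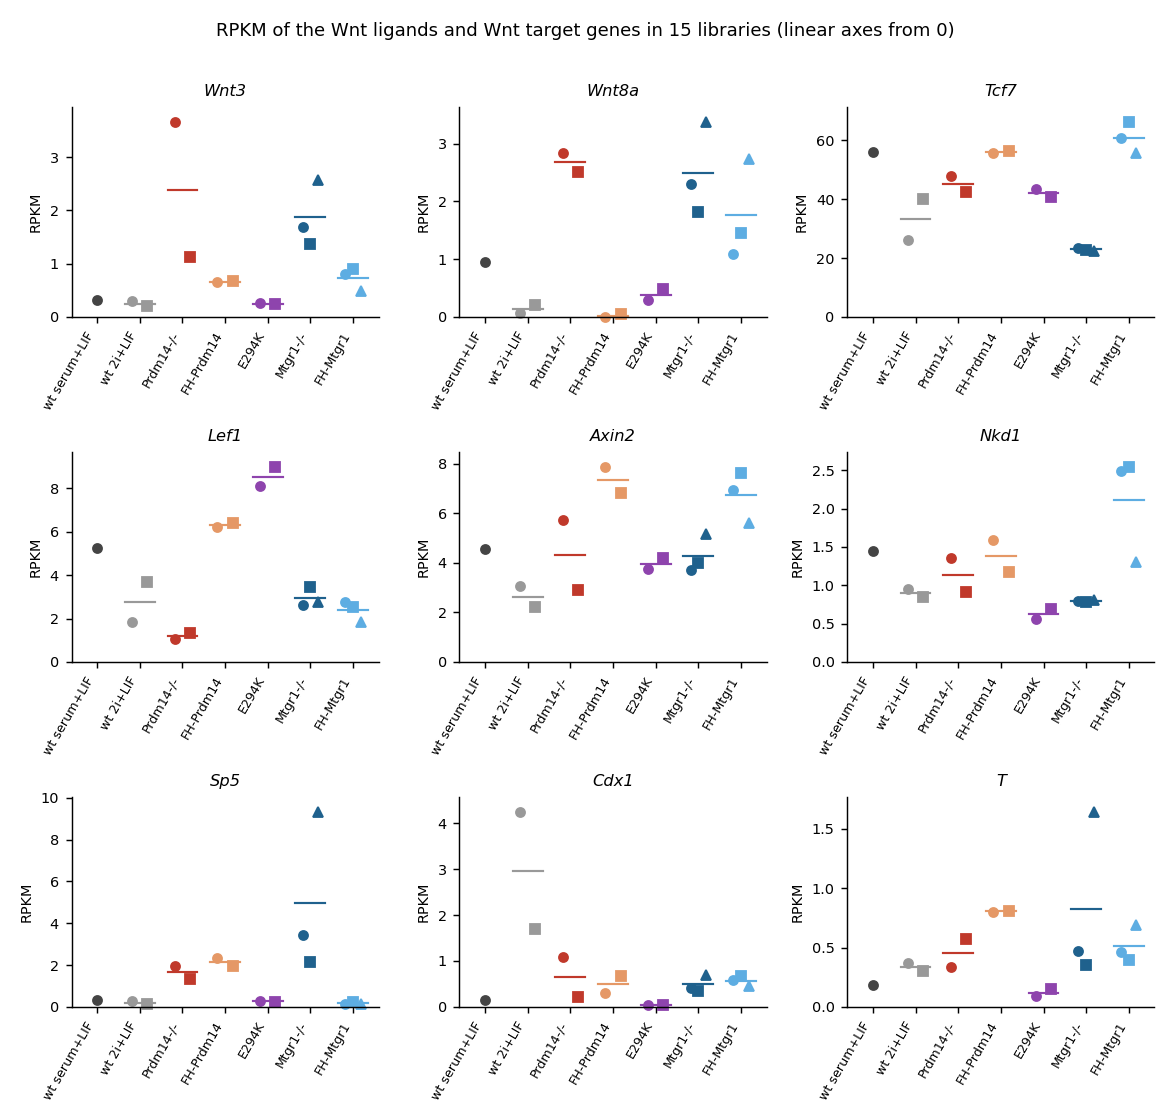
RPKM (linear axes from 0) of the 9 genes in the 15 libraries, with 1 panel per gene and 1 column per condition. Each point is a library (circle, square and triangle: replicates 1 and 2, clones G6 and F10, or clones A3, C1 and C3, in this order) and each bar the mean of a condition with more than 1 library. Wnt3 and Wnt8a stand highest in both knockouts, Sp5 in Mtgr1-/- cells, Tcf7 lowest in Mtgr1-/- cells, Lef1 lowest in Prdm14-/- cells, and Cdx1 highest in 2i+LIF.

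Wnt3 (mm9 chr11:103635464-103679271, + strand), the ligand that induces the primitive streak, was the member that was called higher in both knockouts, against their rescue lines as well as against wt cells. It was at 0.324 RPKM in the wt serum+LIF library and at 0.301 and 0.201 RPKM in 2i+LIF. Prdm14-/- clones G6 and F10 had 3.65 and 1.13 RPKM, against 0.650 and 0.666 RPKM after FH-Prdm14 and 0.262 and 0.235 RPKM after E294K. Mtgr1-/- clones A3, C1 and C3 had 1.68, 1.37 and 2.58 RPKM, against 0.815, 0.908 and 0.479 RPKM with FH-Mtgr1. Every knockout library lay above every other library, and clone G6 stood far above F10. The 5 knockout libraries were also the only ones at 1 RPKM or more. Wnt3 was thus tested only because of the conditions in which it was then called higher.

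The log2 fold change of Wnt3 was 0.93 ± 0.30 (SE) in Mtgr1-/- against FH-Mtgr1 cells (adjusted p = 0.021, limma) and 1.17 ± 0.37 in Prdm14-/- against FH-Prdm14 cells (adjusted p = 0.0365, limma). Against the wt serum+LIF library it was 1.496 ± 0.43 and 1.66 ± 0.45 (adjusted p = 0.0164 and 0.0222, limma). E294K cells had less Wnt3 than Prdm14-/- cells, by -1.80 ± 0.37 (adjusted p = 0.00435, limma), and their difference from FH-Prdm14 cells was -0.63 with an interval of -1.43 to 0.17. Without clone G6, the Prdm14-/- change fell to 0.49 against FH-Prdm14 (adjusted p = 0.38, limma; 0.00237 to 0.38 over its alternatives) and to 0.98 against wt (adjusted p = 0.116, limma; 0.0035 to 0.123). The call against FH-Prdm14 was also lost with the clones paired in a replicate block (adjusted p = 0.0625, limma), without either FH-Prdm14 library (0.138 without G6, 0.135 without F10), and, like the call against wt, without the filter and with only the compared conditions; that of Mtgr1-/- against FH-Mtgr1 was lost without either library of clone C3 (adjusted p = 0.0836 and 0.0813, limma; 0.0117 to 0.0836) and without the filter.

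Wnt8a (chr18:34701967-34707927, + strand), a ligand of the early streak, differed most between Prdm14-/- cells and their rescue. FH-Prdm14 libraries held 0 reads (clone G6, which allows up to 0.154 RPKM) and 1 read (clone F10, 0.0455 RPKM). Prdm14-/- clones held 50 and 49 reads, or 2.84 and 2.51 RPKM, and the E294K lines 7 and 12 reads, or 0.290 and 0.481 RPKM. The wt serum+LIF library was at 0.954 RPKM and the 2i+LIF libraries at 0.0617 and 0.206 RPKM. In the Mtgr1 series the knockout (2.30, 1.82 and 3.37 RPKM) and the rescue (1.10, 1.46 and 2.74 RPKM) overlapped, with clone C3 highest in both.

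The log2 fold change of Wnt8a in Prdm14-/- against FH-Prdm14 cells was 2.60 ± 0.32 (adjusted p = 0.000155, limma), and the ratio of summed reads was 110.6, with an exact 95% interval of 19.4 to 4414 that covers counting error only. In E294K cells Wnt8a was -1.85 ± 0.32 lower than in Prdm14-/- cells (adjusted p = 0.00174, limma), and the libraries of these conditions did not overlap. Against FH-Prdm14 the E294K lines differed by 0.75 ± 0.32 (adjusted p = 0.118, limma), and here the alternatives spanned adjusted p of 0.0133 to 0.418, with 5 of 13 past the threshold. FH-Prdm14 cells were also under the wt serum+LIF library, by -1.48 ± 0.39 (adjusted p = 0.0309, limma; 0.00026 to 0.127 over its alternatives), a call lost without either FH-Prdm14 library (0.127 without G6, 0.0939 without F10), without the filter and with a pseudocount of 1. Mtgr1-/- cells differed from FH-Mtgr1 cells by 0.44 ± 0.26 (adjusted p = 0.178, limma). Their call against wt (1.01 ± 0.37, adjusted p = 0.0486, limma; 0.0356 to 0.108) was lost without clone A3 (0.0699) or C3 (0.108) and under 5 other alternatives, and that of Prdm14-/- cells against wt stood at 1.13 ± 0.39 (adjusted p = 0.0529, limma).

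**Figure D2:**
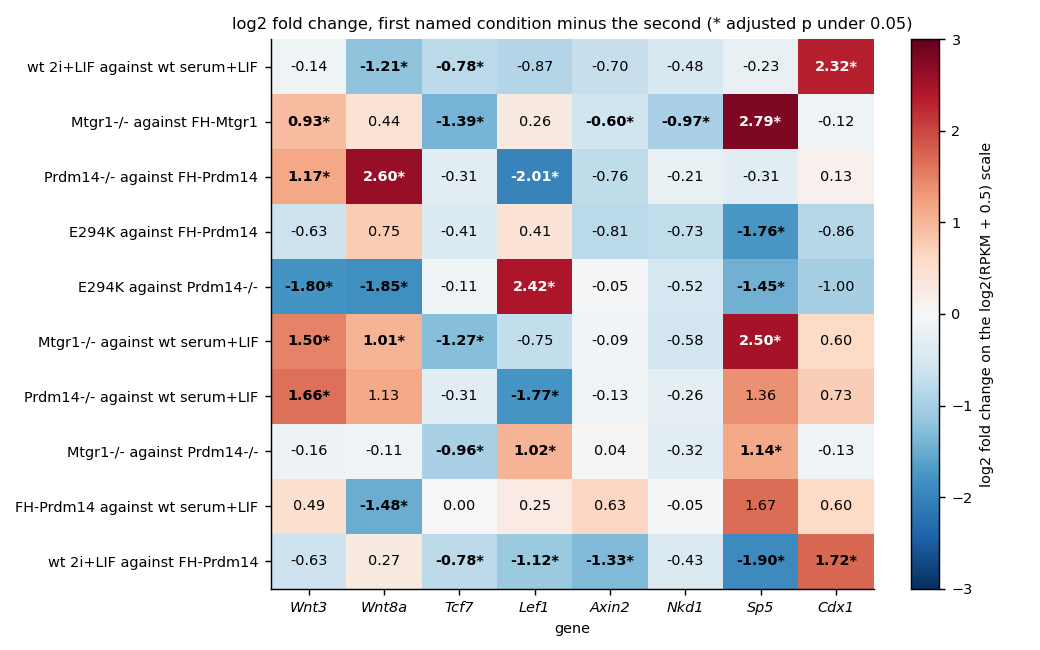
Log2 fold changes of the 8 tested genes (columns) in 10 comparisons (rows), as the first named condition minus the second, on the log2(RPKM + 0.5) scale. Asterisks mark an adjusted p under 0.05 in limma; Sp5 (2.79 in Mtgr1-/- against FH-Mtgr1) and Wnt8a (2.60 in Prdm14-/- against FH-Prdm14) have the largest values.

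Tcf7 (chr11:52065873-52096681, - strand), a TCF/LEF factor able to recruit β-catenin, was the most abundant member and was low in Mtgr1-/- cells. Clones A3, C1 and C3 had 23.5, 22.7 and 22.5 RPKM, and 60.7, 66.1 and 55.8 RPKM with FH-Mtgr1. The wt serum+LIF library had 56.1 RPKM, Prdm14-/- clones 47.9 and 42.5 RPKM, FH-Prdm14 lines 55.5 and 56.3 RPKM and E294K lines 43.3 and 40.6 RPKM. In 2i+LIF Tcf7 was at 26.0 and 40.2 RPKM. The Mtgr1-/- libraries lay under all others and close to each other.

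Tcf7 changed by -1.39 ± 0.14 in Mtgr1-/- against FH-Mtgr1 cells (adjusted p = 1.45e-05, limma), by -1.27 ± 0.20 against wt (adjusted p = 0.000652, limma) and by -0.96 ± 0.16 against Prdm14-/- cells (adjusted p = 0.00084, limma), and these calls were kept under every alternative run. In Prdm14-/- against FH-Prdm14 cells its change was -0.31 with an interval of -0.69 to 0.07, and in E294K against FH-Prdm14 cells -0.41 with an interval of -0.79 to -0.03 (adjusted p = 0.226 and 0.117, limma). In 2i+LIF it was -0.78 ± 0.21 lower than in wt serum+LIF (adjusted p = 0.0212, limma; 0.000989 to 0.518 over its alternatives) and -0.78 ± 0.17 lower than in FH-Prdm14 cells (adjusted p = 0.00688, limma; 0.000479 to 0.149). The 2i+LIF call against serum+LIF was lost without the first 2i+LIF library (-0.48, adjusted p = 0.0528, limma) and with median-of-ratios scaling (0.0524), and both 2i+LIF calls with only the compared conditions.

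Lef1 (chr3:130813389-130927274, + strand), the related factor whose gene is also a Wnt target, was the member that set the Prdm14 lines apart. Prdm14-/- clones had 1.05 and 1.33 RPKM, the lowest values of all libraries, and FH-Prdm14 lines 6.23 and 6.40 RPKM. With E294K the same clones had 8.11 and 8.97 RPKM, the highest of all. The wt serum+LIF library was at 5.25 RPKM, the 2i+LIF libraries at 1.86 and 3.68 RPKM, Mtgr1-/- clones at 2.62, 3.45 and 2.75 RPKM and FH-Mtgr1 lines at 2.77, 2.54 and 1.83 RPKM. Thus Lef1 stayed under the wt level in every library of the Mtgr1 series, rescue included.

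The Lef1 change was -2.01 ± 0.26 in Prdm14-/- against FH-Prdm14 cells (adjusted p = 0.000203, limma) and -1.77 ± 0.32 against wt (adjusted p = 0.004, limma), and E294K cells exceeded Prdm14-/- cells by 2.42 ± 0.26 (adjusted p = 0.000131, limma). These calls held under every alternative run, but the change against wt fell to -0.76 with the FH-Mtgr1 libraries as reference. E294K and FH-Prdm14 cells differed by 0.41, with an interval of -0.15 to 0.97 (adjusted p = 0.285, limma), and FH-Prdm14 cells differed from wt by 0.25, with an interval of -0.44 to 0.93 (adjusted p = 0.622, limma). Mtgr1-/- and FH-Mtgr1 cells differed by 0.26, with an interval of -0.19 to 0.72. Mtgr1-/- cells had more Lef1 than Prdm14-/- cells, by 1.02 ± 0.24 (adjusted p = 0.00588, limma; 0.00391 to 0.0547 over its alternatives, the highest without Prdm14-/- clone G6). In 2i+LIF Lef1 was -1.12 ± 0.26 lower than in FH-Prdm14 cells (adjusted p = 0.00807, limma; 0.00127 to 0.141), a call lost without either FH-Prdm14 library (adjusted p = 0.0529 and 0.0528, limma) and with only the compared conditions.

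Axin2 (chr11:108781663-108812097, + strand), the scaffold protein that closes the negative feedback loop of the pathway, was highest in the rescue lines of both knockouts. Its RPKM was 4.56 in wt serum+LIF cells and 3.06 and 2.22 in 2i+LIF. Prdm14-/- clones had 5.75 and 2.91 RPKM, FH-Prdm14 lines 7.86 and 6.84 RPKM and E294K lines 3.76 and 4.19 RPKM. Mtgr1-/- clones had 3.70, 4.002 and 5.18 RPKM, and FH-Mtgr1 lines 6.95, 7.615 and 5.63 RPKM. Both kinds of rescue line stood above all other libraries but one, Prdm14-/- clone G6, which exceeded FH-Mtgr1 clone C3.

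Axin2 was called lower in Mtgr1-/- than in FH-Mtgr1 cells (-0.60 ± 0.22, adjusted p = 0.0375, limma; 0.0106 to 0.12 over its alternatives). The call was lost with the clones paired in a replicate block (adjusted p = 0.0599, limma), without the filter, and without clone A3 or C1 of the knockout (0.117 and 0.0963) or of the rescue (0.0912 and 0.12). Changes of like size, -0.76 ± 0.27 in Prdm14-/- and -0.81 ± 0.27 in E294K against FH-Prdm14 cells, did not pass the threshold (adjusted p = 0.0561 and 0.0529, limma). In 2i+LIF Axin2 was -1.33 ± 0.27 lower than in FH-Prdm14 cells (adjusted p = 0.00381, limma; 0.00201 to 0.0616, the highest with only the compared conditions), and its difference from the wt serum+LIF library was -0.70 ± 0.33 (adjusted p = 0.142, limma).

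Nkd1 (chr8:91045243-91118786, + strand), an antagonist that binds Dishevelled and is itself induced by Wnt, was low in Mtgr1-/- cells (0.794, 0.782 and 0.812 RPKM) and high in FH-Mtgr1 cells (2.49, 2.54 and 1.30 RPKM). The other libraries lay between 0.564 RPKM (E294K) and 1.59 RPKM (FH-Prdm14), with 1.44 RPKM in wt serum+LIF and 0.946 and 0.840 RPKM in 2i+LIF. Its change in Mtgr1-/- against FH-Mtgr1 cells was -0.97 ± 0.21 (adjusted p = 0.00216, limma), and the call was kept under every alternative run. In Prdm14-/- cells (1.35 and 0.908 RPKM) Nkd1 overlapped FH-Prdm14 cells (1.59 and 1.18 RPKM), with a difference of -0.21 and an interval of -0.77 to 0.35. E294K cells (0.564 and 0.697 RPKM) lay under both, at -0.73 ± 0.26 against FH-Prdm14 (adjusted p = 0.0653, limma).

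**Figure D3:**
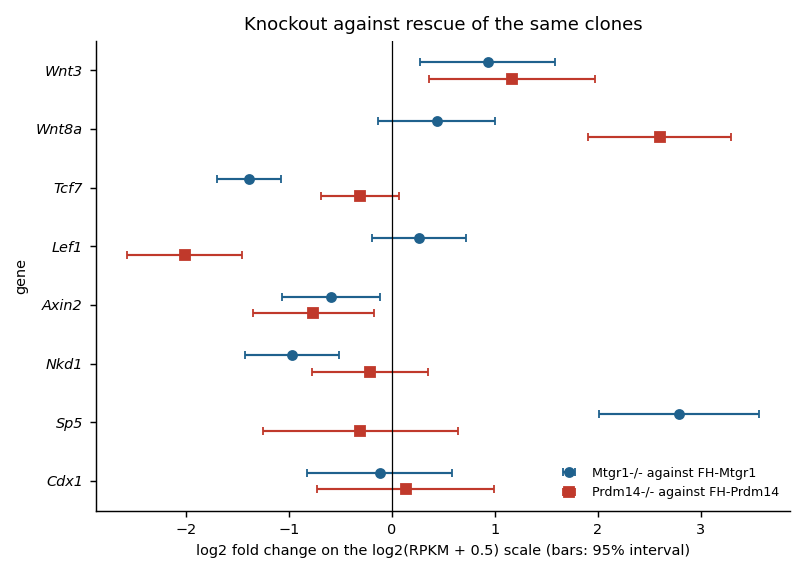
Log2 fold changes (horizontal axis, log2(RPKM + 0.5) scale) of the 8 tested genes in Mtgr1-/- against FH-Mtgr1 cells (circles) and Prdm14-/- against FH-Prdm14 cells (squares), with 95% intervals from limma. The intervals of Wnt3 and Axin2 lie on the same side of 0 in both knockouts, and those of Wnt8a, Tcf7, Lef1 and Sp5 do not overlap between them.

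Sp5 (chr2:70312980-70315786, + strand), a zinc-finger factor and direct Wnt target, whose upstream sequence held the 4 hexamers shown above, gave the largest called change of any member on the log2(RPKM + 0.5) scale, while Wnt8a had the larger ratio of reads. Mtgr1-/- clones had 3.44, 2.16 and 9.30 RPKM, from 149, 82 and 221 reads. FH-Mtgr1 lines had 0.138, 0.247 and 0.150 RPKM, from 4, 11 and 4 reads. Clone C3 was the highest of all libraries, and clones A3 and C1 also lay above every FH-Mtgr1 line. Unlike in the Mtgr1 series, Prdm14-/- clones (1.97 and 1.34 RPKM) and FH-Prdm14 lines (2.34 and 1.95 RPKM) overlapped. The E294K lines (0.2996 and 0.261 RPKM), wt serum+LIF cells (0.330 RPKM) and 2i+LIF cells (0.268 and 0.149 RPKM) were low.

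In Mtgr1-/- against FH-Mtgr1 cells Sp5 rose by 2.79 ± 0.36 on the log2 scale (adjusted p = 5.97e-05, limma), a call kept under every alternative run and also without clone C3. Summed reads gave a ratio of 22.7, with an exact 95% interval of 14.4 to 38.1. Against wt the change was 2.50 ± 0.50 (adjusted p = 0.0026, limma; 0.000678 to 0.0795, the highest with only the compared conditions). Prdm14-/- and FH-Prdm14 cells differed by -0.31, with an interval of -1.25 to 0.64, and stood 1.36 ± 0.53 and 1.67 ± 0.53 from the wt library (adjusted p = 0.0774 and 0.0593, limma). E294K cells had less Sp5 than FH-Prdm14 cells (-1.76 ± 0.44, adjusted p = 0.0152, limma; 0.00125 to 0.104) and than Prdm14-/- cells (-1.45 ± 0.44, adjusted p = 0.0249, limma; 0.00919 to 0.163).

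Both E294K calls for Sp5 were sensitive to the libraries in the fit. Against FH-Prdm14 the call was lost without any 1 library (adjusted p = 0.104 and 0.0618 without FH-Prdm14 G6 and F10, 0.0758 and 0.0955 without E294K G6 and F10, limma) and without the filter. Against Prdm14-/- it was lost without Prdm14-/- clone G6 (0.163) or either E294K library (0.0959 and 0.11), with a pseudocount of 1, without the filter and with values adjusted for GC content (-0.71, adjusted p = 0.115, limma). The Sp5 transcript has 62.1% GC, against a median of 51.2% over the genes tested. Mtgr1-/- cells exceeded Prdm14-/- cells by 1.14 ± 0.40 (adjusted p = 0.0425, limma; 0.00137 to 0.219), which was lost without either Prdm14-/- library (0.0856 without G6, 0.219 without F10), without Mtgr1-/- clone A3 (0.0595) or C3 (0.0636) and under 4 other alternatives. In 2i+LIF Sp5 was -1.90 ± 0.44 lower than in FH-Prdm14 cells (adjusted p = 0.00795, limma; 0.00237 to 0.064, the highest without FH-Prdm14 G6).

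Cdx1 (chr18:61178516-61195853, - strand), a caudal-type homeobox gene induced by Wnt and retinoic acid in the posterior embryo, was the 1 member called higher in 2i+LIF. The 2i+LIF libraries had 4.23 and 1.70 RPKM, from 79 and 38 reads, and the wt serum+LIF library 0.144 RPKM, from 4 reads. Prdm14-/- clones had 1.084 and 0.223 RPKM, FH-Prdm14 lines 0.311 and 0.672 RPKM, Mtgr1-/- clones 0.415, 0.348 and 0.706 RPKM and FH-Mtgr1 lines 0.580, 0.673 and 0.449 RPKM. Each E294K library held 1 read, the lowest level of any condition. Cdx1 reached 1 RPKM in 3 libraries, both from 2i+LIF and Prdm14-/- clone G6, and entered the test through these. The change in 2i+LIF was 2.32 ± 0.48 against wt serum+LIF (adjusted p = 0.00594, limma; 0.00151 to 0.336 over its alternatives) and 1.72 ± 0.40 against FH-Prdm14 (adjusted p = 0.00787, limma; 0.000357 to 0.112). Summed reads gave a ratio of 19.8 between media, with an exact 95% interval of 7.52 to 73.8. Both calls were lost when the fit held the compared conditions alone, and the second without FH-Prdm14 G6 (adjusted p = 0.0821, limma). In E294K cells Cdx1 lay -0.999 ± 0.40 from Prdm14-/- cells and -0.86 ± 0.40 from FH-Prdm14 cells (adjusted p = 0.0694 and 0.143, limma).

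The other members were not called higher in 2i+LIF, the medium with the GSK3 inhibitor. Against the wt serum+LIF library, Wnt8a was lower (-1.21 ± 0.39, adjusted p = 0.0437, limma; 0.000609 to 0.301 over its alternatives), as was Tcf7. That Wnt8a call was lost without the first 2i+LIF library (-1.04, adjusted p = 0.108, limma) and under 4 other alternatives. The differences of Lef1 (-0.87 ± 0.32), Nkd1 (-0.48 ± 0.32), Sp5 (-0.23 ± 0.53) and Wnt3 (-0.14 ± 0.45) did not pass the threshold, and their intervals ran from -1.56 to -0.19, -1.17 to 0.21, -1.40 to 0.93 and -1.12 to 0.85. Lef1 and Sp5 turned in sign when the FH-Mtgr1 libraries served as the serum+LIF reference (0.14 and 0.061). The 2i+LIF libraries differed from each other, with Lef1 and Tcf7 lower and Cdx1 higher in the first.

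T (Brachyury; chr17:8627288-8635361, + strand), the T-box factor of the primitive streak, was barely expressed. Its level was 0.185 RPKM in wt serum+LIF cells, 0.367 and 0.305 RPKM in 2i+LIF, 0.337 and 0.571 RPKM in Prdm14-/- cells, 0.799 and 0.811 RPKM in FH-Prdm14 cells and 0.0921 and 0.149 RPKM in E294K cells. Mtgr1-/- clones A3 and C1 had 0.474 and 0.352 RPKM, within the range of the FH-Mtgr1 lines (0.461, 0.392 and 0.691 RPKM) or just under it, and clone C3 1.64 RPKM. That clone was also the highest of the Mtgr1-/- clones for Sp5, Wnt3, Wnt8a, Axin2, Cdx1 and, by little, Nkd1, but not for Tcf7 or Lef1. Its library had the fewest reads on genes of the Mtgr1-/- libraries (11329857). FH-Prdm14 and E294K libraries did not overlap, with 45 and 8 summed reads and a ratio of 6.66 (exact 95% interval 3.11 to 16.4, counting error only). With no filter on low values T had no call in any comparison, and its E294K against FH-Prdm14 change was -1.07 ± 0.37 (adjusted p = 0.107, limma).

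Whether the knockouts changed alike from their rescue lines was tested as the difference between the Mtgr1-/- against FH-Mtgr1 and the Prdm14-/- against FH-Prdm14 change, which share no library. This difference also takes in how the rescue lines differ: mean Prdm14 RNA was 98.1 RPKM in FH-Prdm14 and 2.25 RPKM in FH-Mtgr1 cells. Of the 9 genes, 2 had a higher and 2 a lower change in the Mtgr1 series, where 17.1% and 14.3% of all genes tested did. Sp5 and Lef1 made up the first pair, and Wnt8a and Tcf7 the second. In Mtgr1-/- against Prdm14-/- cells Wnt8a differed by -0.11 ± 0.29 (adjusted p = 0.789, limma), whereas Sp5, Lef1 and Tcf7 were called there. The differences of Nkd1 (-0.76 ± 0.33), Wnt3 (-0.24 ± 0.48) and Axin2 (0.17 ± 0.35) did not pass the threshold (adjusted p = 0.101, 0.738 and 0.744, limma), with intervals of -1.48 to -0.04, -1.27 to 0.80 and -0.59 to 0.92. For Wnt3 and Axin2 the sign of this difference turned when Prdm14-/- clone G6 (0.44) or F10 (-0.27) was left out.

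**Figure D4:**
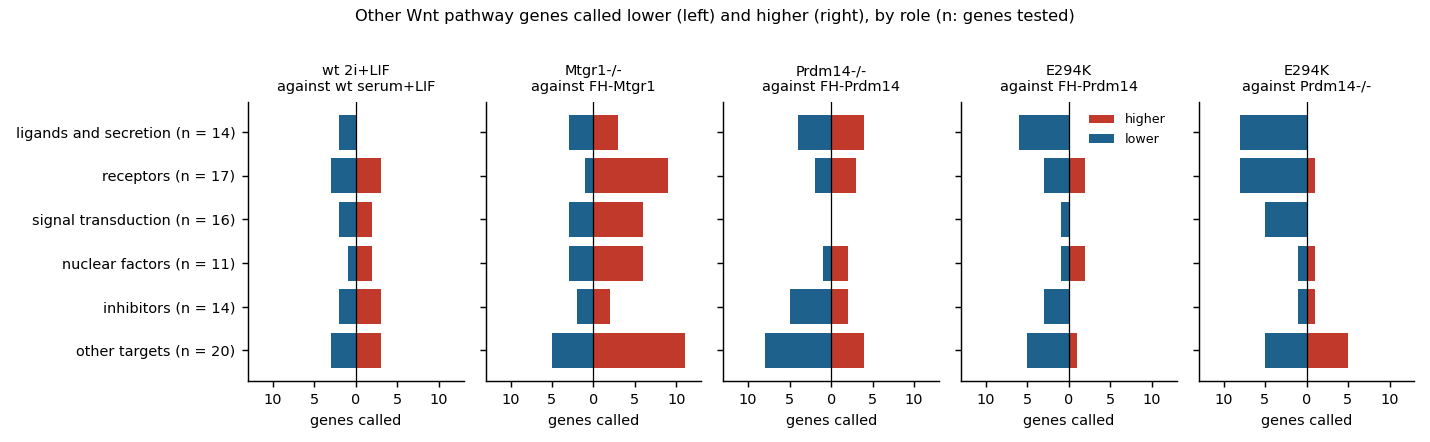
Number of other Wnt pathway genes called lower (to the left of 0) and higher (to the right) in limma, by role, in 5 comparisons, with the number tested in brackets. Of 20 other targets, 11 were higher and 5 lower in Mtgr1-/- against FH-Mtgr1 cells (all genes 26.2% and 26.1%), and of 14 genes of ligands and secretion 0 were higher and 8 lower in E294K against Prdm14-/- cells (all genes 15.1% and 17.8%).

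The other genes of the pathway, 113 by textbook role, of which 92 were tested, set these members in context. In Mtgr1-/- against FH-Mtgr1 cells 37 were higher and 17 lower, where 26.2% and 26.1% of all genes tested were (median log2 fold change 0.30, against -0.01 over all genes). In Prdm14-/- against FH-Prdm14 cells 15 were higher and 20 lower (background 11.4% and 13.8%; median -0.03, against -0.09). E294K cells had 5 higher and 19 lower than FH-Prdm14 cells (6.35% and 13.2%, median -0.26, against -0.06). Against Prdm14-/- cells they had 8 higher and 28 lower (15.1% and 17.8%, median -0.29, against 0). In 2i+LIF against serum+LIF 13 were higher and 13 lower (9.28% and 13.6%, median -0.14, against -0.10). Nothing is read from these counts as particular to the pathway.

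Of the 14 tested genes of ligands and secretion other than the members, 4 were higher and 4 lower in Prdm14-/- against FH-Prdm14 cells (all genes 11.4% and 13.8%). In Mtgr1-/- against FH-Mtgr1 cells 3 were higher and 3 lower (26.2% and 26.1%). Nothing is read from these counts. Wnt4 was higher in both knockouts. Its level was 8.62 and 6.07 RPKM in Prdm14-/- and 7.94, 6.34 and 15.5 RPKM in Mtgr1-/- cells, against 1.47 and 1.01 RPKM in FH-Prdm14 and 1.46, 1.26 and 1.09 RPKM in FH-Mtgr1 cells, with changes of 2.17 ± 0.33 and 2.47 ± 0.27 (adjusted p = 0.000644 and 2.18e-05, limma). Wnt7b rose by 2.82 ± 0.33 in Mtgr1-/- against FH-Mtgr1 cells (adjusted p = 3.18e-05, limma), yet like Sp5 it was as high in FH-Prdm14 cells (20.2 and 23.0 RPKM) as in Prdm14-/- cells (19.4 and 17.4 RPKM) and lower with E294K (3.50 and 3.02 RPKM; -2.56 ± 0.40 against FH-Prdm14, adjusted p = 0.00126, limma). In the Prdm14 series Wnt9a, like Wnt8a, was higher without the rescue, at 12.6 and 9.81 RPKM against 3.10 and 2.44 RPKM (1.84 ± 0.29, adjusted p = 0.000807, limma). The 4 lower calls in Prdm14-/- cells, named after their values were seen, were Wnt5a (-1.59), Wnt3a (-1.34), Wnt6 (-1.17) and Wnt11 (-0.997). Wnt6, for example, was at 2.38 and 2.60 RPKM in Prdm14-/- and 6.55 and 5.92 RPKM in FH-Prdm14 cells. Fzd2, a Frizzled receptor, rose in Prdm14-/- (2.77 ± 0.39) and Mtgr1-/- cells (1.40 ± 0.32) against their rescue lines (adjusted p = 0.000345 and 0.0028, limma).

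**Figure D5:**
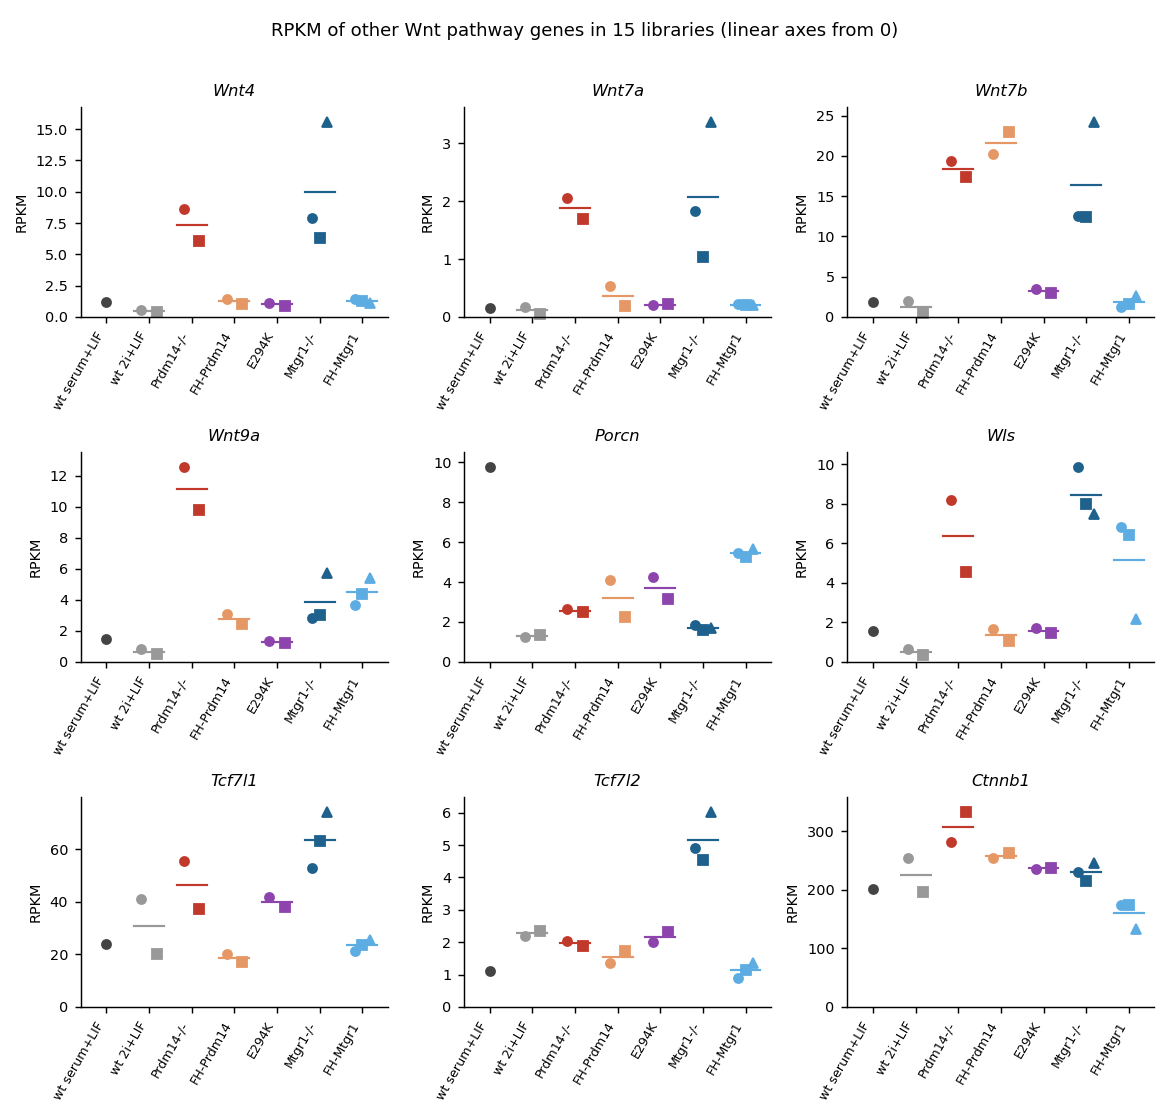
RPKM (linear axes from 0) of 4 Wnt ligands, the secretion factors Porcn and Wls, the TCF factors Tcf7l1 and Tcf7l2, and Ctnnb1 (β-catenin) in the 15 libraries; points and bars as in the plot of the members. Wnt4 and Wnt7a stand highest in both knockouts, Wnt7b is as high in FH-Prdm14 (20.2 and 23.0 RPKM) as in Prdm14-/- cells, and Tcf7l2 is highest in Mtgr1-/- cells (4.54 to 6.01 RPKM).

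Where Tcf7 fell in Mtgr1-/- cells, the other TCF genes rose. Tcf7l1, which encodes a TCF factor that mostly represses, went from 21.4, 23.4 and 25.4 RPKM in FH-Mtgr1 to 52.8, 63.2 and 74.0 RPKM in Mtgr1-/- cells (1.41 ± 0.23, adjusted p = 0.000351, limma), and Tcf7l2 from 0.892, 1.15 and 1.35 to 4.90, 4.54 and 6.01 RPKM (1.80 ± 0.16, adjusted p = 5.71e-06, limma). Tcf7l1 also rose in Prdm14-/- (1.26 ± 0.28) and E294K cells (1.07 ± 0.28) against FH-Prdm14 (adjusted p = 0.00663 and 0.0203, limma), and the Tcf7l2 change was larger in the Mtgr1 series than in the Prdm14 series by 1.52 ± 0.25 (adjusted p = 0.00111, limma). Per kilobase, in Mtgr1-/- cells the order of the TCF/LEF genes was Tcf7l1, Tcf7, Tcf7l2 and Lef1, whereas Tcf7 stood above Tcf7l1 in wt serum+LIF (56.1 against 24.1 RPKM) and in FH-Mtgr1 cells. Ctnnb1 transcripts, at 133 to 332 RPKM in all libraries, rose by 0.52 ± 0.14 in Mtgr1-/- against FH-Mtgr1 cells (adjusted p = 0.00688, limma), and Gsk3b by 0.62 ± 0.19 (adjusted p = 0.0139, limma); Lrp6 and Apc were not called (0.16 and 0.32).

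In 2i+LIF against serum+LIF 3 of the 14 inhibitors tested were higher and 2 lower, and 3 of the 17 receptors were higher and 3 lower. Of the 14 genes of ligands and secretion 0 were higher and 2 lower (all genes 9.28% and 13.6%). Nothing is read from these counts. Those named here were among the 3 largest changes of their roles, and the lower inhibitors and receptors are not named. Sfrp1, a secreted Wnt antagonist, stood at 6.25 RPKM in serum+LIF and at 90.5 and 40.6 RPKM (3.18 ± 0.46, adjusted p = 0.000709, limma), Notum, an enzyme that removes the lipid of Wnt proteins, from 1.40 RPKM to 13.4 and 3.09 RPKM (1.89 ± 0.56, adjusted p = 0.0297, limma), and the receptor gene Fzd10 from 1.69 to 24.6 and 15.9 RPKM (3.21 ± 0.27, adjusted p = 1.85e-05, limma). Porcn, the enzyme that attaches this lipid, was lower, at 1.24 and 1.36 against 9.74 RPKM (-2.51 ± 0.27, adjusted p = 0.000125, limma). That serum+LIF library had the highest Porcn level of all libraries. The engineered serum+LIF lines ran from 1.60 to 1.84 RPKM in Mtgr1-/- cells to 5.27 to 5.68 RPKM in FH-Mtgr1 cells. The changes in this paragraph rest on 1 serum+LIF library, and alternatives were run for the members alone.

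Levels of markers of other cell types are given beside these results. The summed RPKM of 10 primitive streak and mesoderm markers was 34.1 and 13.8 in the 2i+LIF libraries, where Cdx1 was highest, and 4.84 to 12.97 elsewhere. Gsc made up 28.3 and 9.11 RPKM of the 2i+LIF sums, and others of the list were lower there than in wt serum+LIF, such as Mesp2 (0.920 and 0.928 against 2.57 RPKM) and Tbx6 (0.929 and 0.728 against 1.65 RPKM). Of the 10, 4 were tested, and in Mtgr1-/- against FH-Mtgr1 cells 0 of them were higher and 2 lower (all genes 26.2% and 26.1%). With 4 genes tested, nothing is read from this count. The 8 primitive endoderm markers summed to 68.2 to 77.7 RPKM in Mtgr1-/-, 46.9 to 78.8 in Prdm14-/-, 24.6 in wt serum+LIF and 28.5 to 53.1 RPKM in the other libraries, most of it from Col4a1 and Lama1. In Mtgr1-/- against FH-Mtgr1 cells 1 of the 6 tested was higher and 2 lower (all genes 26.2% and 26.1%), with a median of -0.61. Col4a1 had a mean of 57.8 against 22.4 RPKM, while the regulators Gata4 (1.14 against 4.95 RPKM) and Gata6 (0.695 against 3.12 RPKM) lay lower. The 8 fibroblast markers summed to 3.98 to 30.2 RPKM, with Lum at 0 to 2 reads in every library. The part of these cell types in the changes of the Wnt genes was not tested.

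Among themselves the members followed a few shared patterns over the 15 libraries, which share conditions and clones and so are not independent. The Pearson correlation of log2(RPKM + 0.5), given as a description, was highest for Sp5 and Wnt3 (0.756), Axin2 and Nkd1 (0.721), Wnt3 and Wnt8a (0.712) and Tcf7 and Nkd1 (0.695), and lowest for Lef1 and Wnt8a (-0.643). Axin2, the usual readout of the pathway, correlated at 0.152 with Sp5 and 0.0997 with Lef1. Of all genes tested, those with a pattern most like that of Axin2 were Tmem141 (0.876), 3110079O15Rik (0.864), Nek2 (0.850), Fam181b (0.840) and Taf7l (0.832), and those most like T were Foxe1 (0.843), Tgfbr3 (0.830), 1110032F04Rik (0.819), Prrg2 (0.814) and Bc1 (0.813), with few reads behind T.

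Ordered by level, the conditions lined up differently for each member. For Wnt8a the order of the means ran FH-Prdm14, 2i+LIF, E294K, wt serum+LIF, FH-Mtgr1, Mtgr1-/- and Prdm14-/-, and the last 3 overlapped. Wnt3 ran from E294K, which overlapped 2i+LIF, to the knockouts, which overlapped each other and no other condition. The order of Lef1 ran from Prdm14-/- through FH-Mtgr1, 2i+LIF and Mtgr1-/- (overlapping) to wt, FH-Prdm14 and E294K. Tcf7 was lowest in Mtgr1-/- and then 2i+LIF, while FH-Prdm14, wt serum+LIF and FH-Mtgr1 overlapped at the top. Nkd1 and Cdx1 were lowest and Axin2 second lowest in E294K cells.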

How the data were processed

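The authors aligned RNA-seq reads to mm9 with Tophat, counted reads on RefSeq gene models with HTSeq and deposited RPKM values, 1 file per library; tool versions are not given in the sources used here. RPKM times gene length gave whole reads for 100% of values (tolerance 0.01), which supplied depth and read counts. ChIP-seq samples were not analysed here. Values were tested with limma 3.58.1 (R 4.3.3, trend) on log2(RPKM + 0.5), with 1 mean per condition over 15 libraries and Benjamini-Hochberg adjustment over 13477 genes with at least 1 RPKM in 2 libraries. The fit was tested on simulated data. Alternatives were other pseudocounts (0.1 and 1), no filter or one of 3 RPKM, only the compared conditions, median-of-ratios scaling, voom on reads, adjustment for GC content (known for 89.4% of genes), another reference, a replicate block and leaving out each library.

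Rescue lines came from the knockout clones by their labels, so a block by clone pairs them; the correlation of same-clone deviations was -0.182 to 0.063 for the 3 Mtgr1 clones, 0.299 between Prdm14-/- and FH-Prdm14 and 0.0405 to 0.0797 for E294K. Named were the 9 members, up to 3 called pathway genes per role and comparison with the largest change, core pathway genes, and the 5 genes most like Axin2 and T. The members and lists were chosen with earlier results of these data known. Read ratios have exact 95% intervals. Zeros are given with the level of 3 reads.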

Additional observations from a re-analysis of the deposited data

Results flagged for a closer look

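In 4 genes the change in Mtgr1-/- against FH-Mtgr1 cells differed from that in Prdm14-/- against FH-Prdm14 cells, by a test of the difference itself (limma, Benjamini-Hochberg adjusted over 13477 genes). The difference was 3.10 ± 0.56 (SE) on the log2 scale for Sp5 (adjusted p = 0.00185, limma; 0.000227 to 0.0115 over its alternatives), which rose in the Mtgr1 series and overlapped in the Prdm14 series. For Lef1 it was 2.28 ± 0.33 (adjusted p = 0.000542, limma; 0.000244 to 0.00419), the fall being in the Prdm14 series. For Wnt8a it was -2.17 ± 0.41 (adjusted p = 0.00241, limma; 0.000739 to 0.0140), with the rise called in the Prdm14 series. For Tcf7 it was -1.08 ± 0.23 (adjusted p = 0.00387, limma; 0.000884 to 0.0202), the fall being called in the Mtgr1 series. Between the knockouts themselves Wnt8a differed by -0.11 ± 0.29 (adjusted p = 0.789, limma), and FH-Prdm14 cells lay -1.48 ± 0.39 from wt. No condition has enough libraries for a test of single outlying samples.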

How the results depend on the processing

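Of 35 called changes of the members, 16 kept their call under every alternative run for them, 19 lost it under at least 1 and 0 turned in direction. The single settings with the most losses were fitting only the compared conditions (12 of 35) and testing all genes without the filter (10 of 35). Leaving out a library also lost calls. Of 16 calls with Mtgr1-/- cells, 3 were lost without clone A3, 1 without C1 and 3 without C3. Calls were also lost where this left 1 library in a condition, as given above by gene. The cause of these losses was not tested. With a filter of 3 RPKM 21 could be tested and 0 were lost. The clone-based replicate block lost 2 of 17, Axin2 in Mtgr1-/- against FH-Mtgr1 (adjusted p = 0.0599, limma) and Wnt3 in Prdm14-/- against FH-Prdm14 (adjusted p = 0.0625, limma), and changed no other call of a member; with GC adjustment it lost 1 of 17. The block gave 4, 2, 1, 4 and 4 members in Mtgr1-/- and Prdm14-/- against rescue, E294K against FH-Prdm14 and Prdm14-/-, and the difference of knockout effects.

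The number of members called in 2i+LIF against serum+LIF went from 3 to 1 with the stricter filter and with median-of-ratios scaling, 0 with only the compared conditions, 5 with FH-Mtgr1 libraries as reference and 1 to 4 leaving out a library. For Mtgr1-/- against FH-Mtgr1 it went from 5 to 3 without the filter and with the stricter one, and for Prdm14-/- against FH-Prdm14 from 3 to 1 with the stricter one. All drops given here for the stricter filter are members that it removed from the test. Of the 21 calls it still tested, 0 were lost. For E294K against FH-Prdm14 it went from 1 to 3 and 2 with pseudocounts of 0.1 and 1, 0 without the filter, 8 with only the compared conditions, 4 with voom, 2 with GC adjustment, 2 with replicate block and GC adjustment, and 0 without any 1 library. E294K against Prdm14-/- went from 4 to 2 with the stricter filter. Mtgr1-/- against wt went from 4 to 2 with the stricter filter and with only the compared conditions, and Prdm14-/- against wt from 2 to 1 without the filter, with the stricter one and with only the compared conditions, 4 with FH-Mtgr1 as reference and 1 to 2 leaving out a library. Mtgr1-/- against Prdm14-/- went from 3 to 1 to 3 leaving out a library, the lowest without Prdm14-/- G6. FH-Prdm14 against wt went from 1 to 2 with a pseudocount of 0.1, 0 with a pseudocount of 1, without the filter, with the stricter one and without either library, and 3 with only the compared conditions and with FH-Mtgr1 as reference. In 2i+LIF against FH-Prdm14 it went from 5 to 1 with only the compared conditions and 2 to 5 leaving out a library, the lowest without FH-Prdm14 G6.

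The number of all genes called moved with these settings too, so the counts of members are not read as particular to them. With only the compared conditions, 3003 of 13477 genes were higher and 4211 lower in E294K against FH-Prdm14, and 141 and 485 in 2i+LIF against FH-Prdm14. In 2i+LIF against the single serum+LIF library, that setting called no gene of the 13477. The loss of every member there is thus not particular to them. With FH-Mtgr1 libraries as reference it was 2539 and 2335 in 2i+LIF, 3051 and 2270 in Prdm14-/- and 3531 and 2069 in FH-Prdm14 cells. Uncalled changes that turned in sign were Lef1 (0.14) and Sp5 (0.061) in 2i+LIF against FH-Mtgr1 as reference, and the difference of knockout effects of Axin2 (-0.27 to 0.61) and Wnt3 (-0.91 to 0.44) when a library was left out. Median-of-ratios scaling moved the median of all genes by over 0.1 only in Mtgr1-/- against wt (0.103). Few reads limit T, Cdx1, Wnt8a and Sp5, and comparisons with wt serum+LIF rest on 1 library of that condition.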
